A study of Homo sapiens with 18 samples.

Results

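The 7 genes CDKN1A, CDKN1B, CDKN1C, CDKN2A, CDKN2B, CDKN2C and CDKN2D encode the cyclin-dependent kinase (CDK) inhibitor proteins of the Cip/Kip and INK4 families. They were chosen by gene symbol, and all 7 were present among the 20145 genes of the count table. Messenger RNA was sequenced from LNCaP, an established human prostate adenocarcinoma cell line that responds to androgen, in 18 libraries. For 72 h the cells received 1 µM of 2-77, 0.2 µM of ACBI, 2 µM of BD98, 10 µM of P-16 (written PB16 in the treatment protocol), 10 µM of ENZA or the vehicle DMSO. Each condition had 3 libraries, and all cells were grown in RPMI with 10% fetal bovine serum. ENZA is enzalutamide, an antiandrogen. The series title names inhibitors of the BRD7 bromodomain, but the labels assign no target to 2-77, ACBI, BD98 or P-16. Doses differed between compounds, so each comparison of compounds was also a comparison of doses.

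Passage through the G1 phase of the cell cycle requires cyclin D with CDK4 or CDK6 and then cyclin E or A with CDK2, which phosphorylate the retinoblastoma protein and release E2F transcription factors. The INK4 proteins p16 (CDKN2A), p15 (CDKN2B), p18 (CDKN2C) and p19 (CDKN2D) bind CDK4 and CDK6 and block their pairing with cyclin D. The Cip/Kip proteins p21 (CDKN1A), p27 (CDKN1B) and p57 (CDKN1C) bind whole cyclin-CDK complexes. In prostate cells, loss of p27 and changes of p21 have long been followed as features of tumour growth, and CDKN1A has been described as an androgen-responsive gene.

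In the hg38 coordinates of the table, CDKN1A lies at chr6:36676463-36687332 on the plus strand and CDKN1B at chr12:12717368-12722369 on the plus strand. CDKN1C lies at chr11:2883218-2885775 on the minus strand. CDKN2A, at chr9:21967752-21995324, and CDKN2B, at chr9:22002903-22009313, are neighbours on the minus strand. CDKN2C lies at chr1:50968695-50974634 on the plus strand and CDKN2D at chr19:10566460-10568979 on the minus strand. CDKN2A produces the transcripts of both p16 and the unrelated protein p14ARF, and a count per gene cannot tell them apart. Counts of CDKN1A in 17 libraries, of CDKN2A in 15 and of CDKN2B in 6 were more than 0.01 away from a whole number, so some reads of these genes were assigned in part. The other 4 genes had counts within 0.01 of a whole number in all 18 libraries.

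Libraries held 16835113 to 36975052 counts, and a count of 3 was worth 0.0811 to 0.178 CPM, the count of a gene scaled to the size of its library. Luminal prostate markers were present in every library, with KLK3 at 626 to 4320 CPM, KRT8 at 400 to 593 CPM and HOXB13 at 555 to 775 CPM. Of the other-cell markers, DCN, PTPRC and CHGA had 0 counts in 15, 17 and 12 libraries, and KRT14 reached 2.10 CPM at most. The summed level of the 5 other-cell markers in the table ran from 17.7 to 18.4 CPM with 2-77, 12.8 to 14.5 CPM with ACBI, 11.8 to 13.7 CPM with BD98, 14.1 to 15.9 CPM with P-16, 14.3 to 15.3 CPM with ENZA and 14.2 to 15.7 CPM with DMSO. COL1A1 made up most of that sum, at 11.4 to 18.4 CPM. ACBI replicate 3 stood apart, with 8.60% of its counts on ribosomal RNA genes, against 0.639 to 2.09% in the other 17 libraries. It was the highest or lowest of the 3 ACBI libraries for each of the 7 CDK inhibitor genes. Tests of these 7 genes with ACBI were therefore repeated without it, and results that differ are given. Levels scaled to exon length, their sums and shares, and the other gene groups are given only with all 3 ACBI libraries. Nothing in the labels says that replicates were separate cultures, so p-values measure the spread between these libraries, which may be technical. In RNA from a whole culture, fewer cells that express a gene and less of its RNA per cell cannot be told apart.

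The promoters of CDKN1A and CDKN2B are shown because these genes were the most strongly lowered Cip/Kip gene and the most strongly raised INK4 gene after ACBI. Each window covers 190 bases, from 250 to 61 bases before a RefSeq transcription start (GRCh38.p14), read 5′ to 3′ on the gene's own strand. They are the regions chr6:36678464-36678653 on the plus strand and chr9:22009366-22009555 on the minus strand. The CDKN1A window lies inside the span of that gene given above, chr6:36676463-36687332, before a start within the gene. No window before the first base of that span was searched. Capitals mark the GC box GGGCGG or its reverse complement CCGCCC.
CDKN1A: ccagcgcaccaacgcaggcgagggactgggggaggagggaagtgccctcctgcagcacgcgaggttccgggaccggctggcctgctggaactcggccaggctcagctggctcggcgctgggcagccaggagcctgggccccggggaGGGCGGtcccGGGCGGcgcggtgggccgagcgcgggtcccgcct
CDKN2B: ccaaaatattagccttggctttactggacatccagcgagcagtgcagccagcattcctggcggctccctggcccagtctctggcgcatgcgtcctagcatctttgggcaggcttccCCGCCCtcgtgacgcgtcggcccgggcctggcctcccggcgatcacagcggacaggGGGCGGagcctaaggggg
Guanine and cytosine made up 77.4% of the CDKN1A window and 66.3% of the CDKN2B window, and each window held 2 GC boxes. At least 1 GC box on either strand was found in 33% of 35116 RefSeq windows of the same length and position. Neither window held CCAAT (found in 25.8% of all windows), TATAAA (7.4%), CACGTG (4.13%) or TTTCCCGC (1.05%), searched on both strands. The windows stop 61 bases before the start, so a TATAAA or other motif nearer to it would have been missed. These absences therefore do not describe the whole promoters. RefSeq windows were matched for 6 of the 7 genes, and CDKN1C was the exception. These matches describe letters in the windows and say nothing of which factors bind there.

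Scaled to exon length, the Cip/Kip genes CDKN1A and CDKN1B were the most abundant of the 7 in each of the 6 conditions. In DMSO, CDKN1A had 108.1 ± 0.269 CPM per kb of exon and CDKN1B had 47.4 ± 2.47 CPM per kb (SD, n = 3), while the other 5 genes had between 0.663 and 10.4 CPM per kb. CDKN2A was next, at 10.4 ± 0.317 CPM per kb in DMSO, and CDKN2B was the lowest. The order of genes rests on the exon lengths used, which may not be those counted. ACBI was the condition in which the order of the leading pair turned round, with CDKN1A at 40.6 ± 3.92 CPM per kb and CDKN1B at 56.9 ± 5.82 CPM per kb (SD, n = 3). CDKN1A made up 65.1 ± 1.35% of the summed length-scaled level of the 7 genes with 2-77, 33.1 ± 3.46% with ACBI, 50.5 ± 1.70% with BD98, 62.8 ± 0.685% with P-16, 60.1 ± 0.439% with ENZA and 58.1 ± 0.701% with DMSO. The share of CDKN1B was 46.3 ± 4.33% with ACBI, against 25.4 ± 0.98% with DMSO, and lay between 22.1% and 27% with the other 4 compounds.

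The summed level of the 3 Cip/Kip genes was 174 ± 1.31 CPM per kb with 2-77, 99.3 ± 1.79 with ACBI, 110 ± 4.03 with BD98, 174 ± 2.42 with P-16, 148 ± 3.23 with ENZA and 157 ± 2.75 with DMSO (SD, n = 3 each). The 4 INK4 genes together had 22.8 ± 0.834 CPM per kb with 2-77, 23.5 ± 0.766 with ACBI, 28.9 ± 1.15 with BD98, 25.0 ± 0.341 with P-16, 23.6 ± 0.364 with ENZA and 28.8 ± 0.177 with DMSO. The Cip/Kip sum was thus below every DMSO library in all libraries with ACBI, BD98 and ENZA and above every DMSO library in all libraries with 2-77 and P-16. Neither family's sum was tested. With ENZA, CDKN1A, CDKN1B and CDKN1C did not pass on their own (edgeR adjusted p = 0.252, 0.141 and 0.273). The INK4 sum was below every DMSO library with 2-77, ACBI, P-16 and ENZA, and its BD98 libraries, at 27.7 to 29.9, overlapped the DMSO libraries, at 28.6 to 28.9. The plot of stacked length-scaled levels shows both families by condition.

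**Figure D1:**
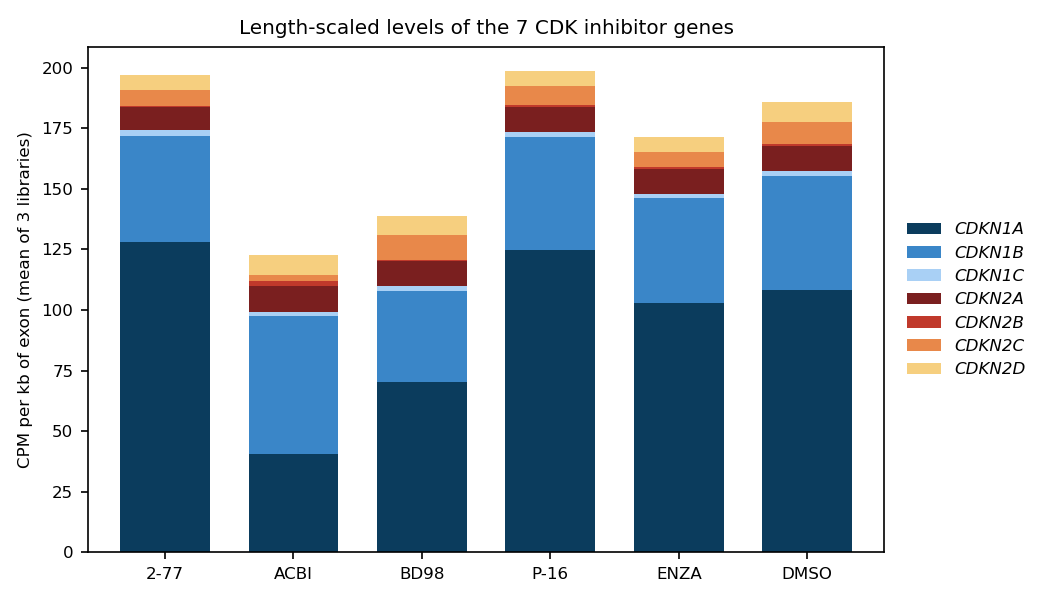
Mean length-scaled level (CPM per kb of exon, 3 libraries per condition) of the 7 CDK inhibitor genes, stacked by gene, with Cip/Kip genes in blue and INK4 genes in red to yellow. CDKN1A fills 33.1% of the ACBI bar, against 58.1% of the DMSO bar.

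CDKN1A, whose product p21 inhibits CDK2 complexes and binds the replication clamp PCNA, had 323.7, 325.7 and 314.7 CPM with 2-77, 111, 103 and 91.4 CPM with ACBI and 167, 182 and 178 CPM with BD98. It had 305.1, 319.6 and 314.4 CPM with P-16, 261.2, 260.0 and 255.0 CPM with ENZA, and 271.9, 271.5 and 270.6 CPM with DMSO. No compound's libraries overlapped those of DMSO, which lay close together (SD 0.675 CPM), and the ACBI libraries were the lowest of all. Against DMSO, CDKN1A fell 2.66-fold with ACBI (log2 fold change -1.41 ± 0.05 SE, edgeR adjusted p = 2.53e-21) and 1.54-fold with BD98 (-0.62 ± 0.05, adjusted p = 2.79e-12). It rose 1.18-fold with 2-77 (0.24 ± 0.05, adjusted p = 6.25e-05) and 1.15-fold with P-16 (0.21 ± 0.05, adjusted p = 0.00103). The difference between ENZA and DMSO did not pass the test (log2 fold change -0.07, 95% interval -0.16 to 0.02, adjusted p = 0.252). Ordered by mean level, the conditions ran 2-77, P-16, DMSO, ENZA, BD98 and ACBI, and the neighbours that did not differ were 2-77 and P-16 (adjusted p = 0.601) and ENZA and DMSO. Without ACBI replicate 3, the ACBI value was -1.33.

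CDKN1B encodes p27, which restrains cyclin E and cyclin A with CDK2 and is controlled to a large degree by protein breakdown. It had 111, 109 and 127 CPM with 2-77, 137, 149 and 168 CPM with ACBI and 102, 105 and 92.5 CPM with BD98. Further values were 125, 122 and 124 CPM with P-16, 119, 115 and 111 CPM with ENZA and 128, 131 and 119 CPM with DMSO. All 3 ACBI libraries were above and all 3 BD98 libraries below every DMSO library, and the other 3 compounds overlapped DMSO. CDKN1B rose 1.2-fold with ACBI (log2 fold change 0.26 ± 0.07 SE, edgeR adjusted p = 0.00157), opposite in sign to CDKN1A. It fell 1.26-fold with BD98 (-0.34 ± 0.07, adjusted p = 0.000374), the same sign as CDKN1A. The log2 fold changes with 2-77 (-0.12), P-16 (-0.03) and ENZA (-0.13) did not pass (adjusted p = 0.167, 0.839 and 0.141). Between ACBI at the top of the order and BD98 at the bottom, the neighbours DMSO, P-16, 2-77 and ENZA were not told apart. The ACBI value was 0.19 without replicate 3 (adjusted p = 0.00712), and CDKN1B passed with 2-77 when 2-77 replicate 3 was left out (-0.19, adjusted p = 0.0263).

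CDKN1C, the imprinted gene of p57, was detected at 50 to 177 counts per library. It had 5.74, 4.28 and 4.59 CPM with 2-77, 3.77, 3.52 and 3.31 CPM with ACBI, 4.59, 4.84 and 4.45 CPM with BD98, 4.19, 4.60 and 4.35 CPM with P-16, 3.57, 3.15 and 2.32 CPM with ENZA and 3.26, 3.89 and 3.52 CPM with DMSO. Libraries with 2-77, BD98 and P-16 were all above the DMSO libraries, and those with ACBI and ENZA overlapped them. Only the difference with 2-77 passed, at 1.37-fold higher (log2 fold change 0.46 ± 0.16 SE, edgeR adjusted p = 0.0191). That call rested on single libraries, since the value was 0.31 without 2-77 replicate 1 (adjusted p = 0.157), 0.40 without DMSO replicate 1 (adjusted p = 0.0741) and 0.45 without DMSO replicate 3 (adjusted p = 0.0551). With BD98 the log2 fold change of CDKN1C was 0.37 (95% interval 0.05 to 0.70, adjusted p = 0.0518), and with P-16 it was 0.30 (adjusted p = 0.192). No neighbours in the order 2-77, BD98, P-16, DMSO, ACBI and ENZA differed, although 2-77 at its top was 1.62-fold above ENZA at its bottom (adjusted p = 0.00385).

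CDKN2A, the gene of p16, passed the test with no compound. Its libraries had 29.7, 31.6 and 28.3 CPM with 2-77, 40.3, 33.0 and 28.5 CPM with ACBI and 33.6, 30.1 and 32.4 CPM with BD98. They had 31.4, 32.7 and 32.1 CPM with P-16, 35.0, 30.8 and 33.0 CPM with ENZA and 34.0, 32.4 and 32.2 CPM with DMSO. All 3 libraries with 2-77 lay below every DMSO library. The highest and the lowest ACBI libraries lay on either side of all 3 DMSO libraries, and the coefficient of variation within ACBI was 17.6%. CDKN2A passed the edgeR test in 0 of the 5 contrasts with DMSO and in 0 of the 10 pairs of compounds, with log2 fold changes against DMSO of -0.14 (2-77), 0.05 (ACBI), -0.03 (BD98), -0.03 (P-16) and 0.00 (ENZA). The 95% intervals ran from -0.31 at the low end, with 2-77, to 0.23 at the high end, with ACBI, so a change of the size seen for CDKN2B with ACBI lay outside them. The ACBI value turned with the library left out: it was 0.17 and passed without replicate 3 (adjusted p = 0.0389), and was -0.09 and did not pass without replicate 1 (adjusted p = 0.271).

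CDKN2B encodes p15, known as an INK4 inhibitor induced by transforming growth factor beta. It was the least abundant of the 7 genes per length in DMSO. It had 2.50, 3.11 and 3.09 CPM with 2-77, 7.73, 7.92 and 9.61 CPM with ACBI, 2.32, 2.79 and 1.64 CPM with BD98, 3.01, 3.53 and 3.30 CPM with P-16, 3.05, 2.69 and 3.15 CPM with ENZA and 2.15, 2.93 and 2.94 CPM with DMSO. Every ACBI library was above the other 15 libraries, which together lay between 1.64 and 3.53 CPM. With ACBI, CDKN2B rose 3.12-fold against DMSO (log2 fold change 1.64 ± 0.17 SE, edgeR adjusted p = 7.65e-10), and the value was 1.54 without ACBI replicate 3. The 4 remaining compounds gave log2 fold changes of 0.10 (2-77), -0.30 (BD98), 0.28 (P-16) and 0.12 (ENZA), none of which passed. In the order ACBI, P-16, ENZA, 2-77, DMSO and BD98, only the step between ACBI and P-16 passed (adjusted p = 1.58e-08), while BD98 was also lower than P-16 (log2 fold change -0.58, adjusted p = 0.0138).

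CDKN2C, the gene of p18, an inhibitor of CDK6 and CDK4 that is itself known as an E2F target, changed with more compounds than the other INK4 genes. It had 23.1, 22.8 and 20.4 CPM with 2-77, 8.35, 8.79 and 7.99 CPM with ACBI and 33.7, 33.3 and 36.2 CPM with BD98. It had 26.8, 25.6 and 25.3 CPM with P-16, 20.5, 22.4 and 20.7 CPM with ENZA and 31.5, 32.5 and 29.4 CPM with DMSO. The ACBI libraries were the lowest of all, the libraries with 2-77, P-16 and ENZA lay between them and DMSO, and those with BD98 were above DMSO. CDKN2C fell 3.71-fold with ACBI (log2 fold change -1.89 ± 0.08 SE, edgeR adjusted p = 1.99e-19), the largest change of any of the 7 genes with any compound. It fell 1.40-fold with 2-77 (-0.49 ± 0.07, adjusted p = 6.74e-07), 1.2-fold with P-16 (-0.26 ± 0.07, adjusted p = 0.00432) and 1.46-fold with ENZA (-0.55 ± 0.07, adjusted p = 1.21e-07). The BD98 value was 0.15 (95% interval 0.01 to 0.28) and did not pass (adjusted p = 0.061). In the order BD98, DMSO, P-16, 2-77, ENZA and ACBI, the neighbours that did not differ were BD98 and DMSO, and 2-77 and ENZA (adjusted p = 0.731).

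CDKN2D, the gene of p19, had 8.75, 8.90 and 9.06 CPM with 2-77, 10.7, 12.6 and 13.5 CPM with ACBI, 12.9, 11.1 and 11.1 CPM with BD98, 8.99, 9.11 and 10.2 CPM with P-16, 8.17, 10.3 and 8.76 CPM with ENZA and 12.1, 11.7 and 13.7 CPM with DMSO. All libraries with 2-77, P-16 and ENZA were below every DMSO library, and ACBI and BD98 overlapped DMSO. CDKN2D fell 1.41-fold with 2-77 (log2 fold change -0.49 ± 0.11 SE, edgeR adjusted p = 0.00034), 1.33-fold with P-16 (-0.41 ± 0.11, adjusted p = 0.00461) and 1.36-fold with ENZA (-0.45 ± 0.10, adjusted p = 0.000992). The values with ACBI (-0.03, 95% interval -0.24 to 0.17) and BD98 (-0.10, 95% interval -0.31 to 0.11) did not pass. DMSO, ACBI and BD98 headed the order with no difference between neighbours, P-16 was lower than BD98 (BD98 against P-16, log2 fold change 0.31, adjusted p = 0.0167), and the neighbours P-16, ENZA and 2-77 did not differ. The plot of single libraries shows all 7 genes side by side.

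**Figure D2:**
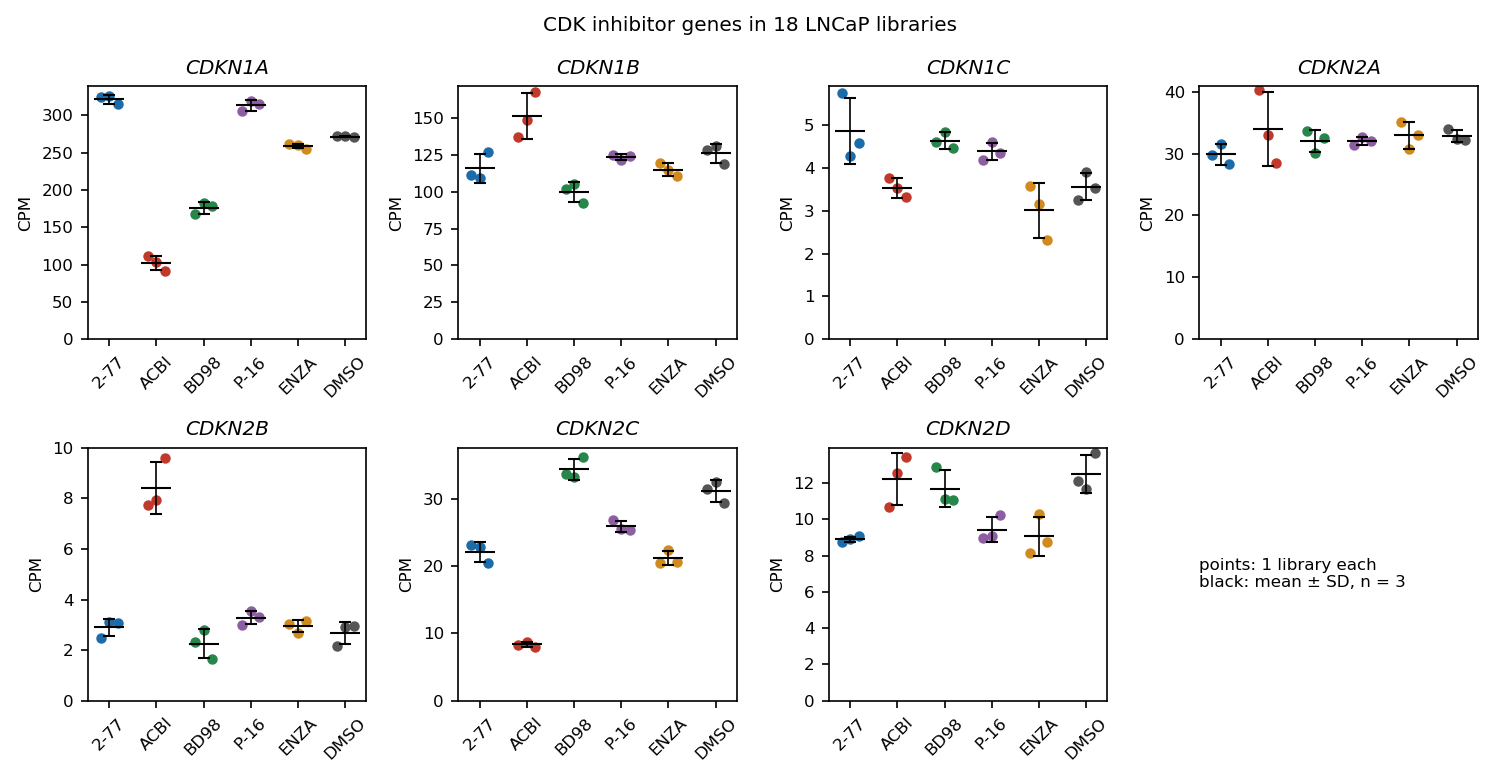
CPM (TMM-scaled) of each CDK inhibitor gene in each of 18 LNCaP libraries, with 1 panel per gene and its own axis from 0. Points are libraries and black lines are the mean ± SD (n = 3); the ACBI points are the lowest for CDKN1A and CDKN2C and the highest for CDKN1B and CDKN2B.

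Of 35 changes of a CDK inhibitor gene against DMSO, 15 passed, 5 of them higher and 10 lower. With 2-77, 2 of the 7 genes were higher (CDKN1A and CDKN1C), 2 lower (CDKN2C and CDKN2D) and 3 not called, where 40.7% of all 15422 genes tested were called (20.5% higher and 20.2% lower). With ACBI, 2 were higher (CDKN1B and CDKN2B), 2 lower (CDKN1A and CDKN2C) and 3 not called, where 72% of all genes were called (35.4% higher and 36.6% lower). With BD98, 2 were lower (CDKN1A and CDKN1B) and 5 not called, beside 49% of all genes called (24.5% higher and 24.5% lower). With P-16, 1 was higher (CDKN1A), 2 lower (CDKN2C and CDKN2D) and 4 not called, beside 24% of all genes (12.4% higher and 11.6% lower). With ENZA, 2 were lower (CDKN2C and CDKN2D) and 5 not called, beside 36.3% of all genes (18.2% higher and 18.1% lower). The members' shares lay above the background with 2-77 and P-16 and below it with ACBI, BD98 and ENZA, and with 7 genes nothing is read from these gaps. With BD98 the count was 4 of 7, CDKN1C and CDKN2C higher besides, with library totals (7509 genes called in all) and in a fit of those 2 groups alone (7678 genes). With ACBI the count was 5 of 7 without ACBI replicate 3 (10945 genes called in all), since CDKN2A then passed as higher. All 5 contrasts share the DMSO libraries.

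Measured by the median absolute log2 fold change, the 7 genes moved by 0.24 with 2-77, 0.26 with ACBI, 0.30 with BD98, 0.26 with P-16 and 0.13 with ENZA. Over all genes tested the same medians were 0.19, 0.44, 0.22, 0.13 and 0.17. The signed medians of the 7 genes were -0.12, -0.01, -0.10, -0.03 and -0.13, and those of all genes lay between -0.01 and 0.00. The scaling of libraries (TMM) holds the bulk of all genes near 0, so the latter cannot show a shift of all genes. The genes of each family did not move as a block: with ACBI the Cip/Kip genes CDKN1A and CDKN1B passed in opposite directions, and so did the INK4 genes CDKN2C and CDKN2B. The plot of fold changes against vehicle sets the 5 compounds side by side.

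**Figure D3:**
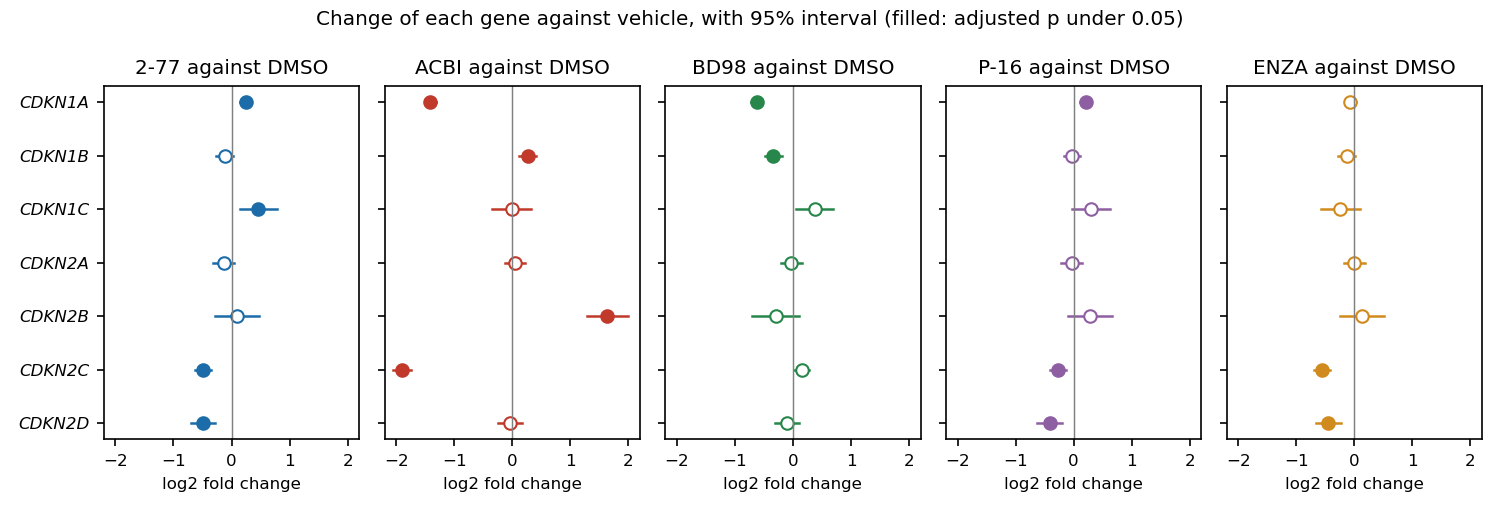
Log2 fold change against DMSO (x axis) of each CDK inhibitor gene, with 1 panel per compound; points are edgeR estimates, lines 95% intervals, and filled points have an adjusted p under 0.05. CDKN1A and CDKN2C lie at -1.41 and -1.89 and CDKN2B at 1.64 in the ACBI panel, while CDKN2C and CDKN2D are the filled points left of 0 for 2-77, P-16 and ENZA.

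Compounds were also compared directly, in 10 pairs at their unequal doses, with p-values adjusted over genes within each pair. Over the 7 genes, 41 of 70 differences passed, where 45.9% of all genes were called over the 10 pairs combined (5.54% to 71.5% in single pairs). CDKN1A and CDKN2C each differed in 9 of 10 pairs, CDKN1B in 7, CDKN2D in 6, CDKN1C and CDKN2B in 5 each and CDKN2A in 0. The exception for CDKN1A was 2-77 against P-16 (log2 fold change 0.04, 95% interval -0.05 to 0.13), and that for CDKN2C was 2-77 against ENZA (0.06, 95% interval -0.08 to 0.20).

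Between 2-77 and P-16, CDKN2C passed in the edgeR test (1.17-fold lower with 2-77, log2 fold change -0.23 ± 0.07 SE, adjusted p = 0.0147) and the other 6 genes did not, in a pair where 22.4% of all genes were called. Between 2-77 and ENZA, where 5.54% of all genes were called, CDKN1A was higher with 2-77 (321.4 ± 5.85 CPM, against 258.7 ± 3.29 CPM with ENZA, log2 fold change 0.31 ± 0.04 SE, adjusted p = 1.6e-05). CDKN1C was also higher with 2-77 (4.87 ± 0.770 CPM, against 3.01 ± 0.638 CPM with ENZA, log2 fold change 0.70 ± 0.15 SE), and the remaining 5 genes did not pass in that pair. P-16 against ENZA, with 21.4% of all genes called, gave differences in 3 of the 7 genes, namely CDKN1A (log2 fold change 0.27), CDKN1C (0.53) and CDKN2C (0.29). CDKN1A was thus higher in all libraries with 2-77 and P-16 than in every ENZA library, while the 3 compounds lowered CDKN2D to levels that did not differ between them (95% intervals within -0.30 to 0.26).

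BD98 differed from 2-77 in 4 of the 7 genes (42% of all genes called), from P-16 in 5 (43.6%) and from ENZA in 5 (42.5%). Against each of these 3 compounds, CDKN1A and CDKN1B were lower with BD98 and CDKN2C and CDKN2D higher. CDKN2C showed a wider gap than CDKN2D, at 34.4 ± 1.58 CPM with BD98, against 21.2 ± 1.02 CPM with ENZA (log2 fold change 0.70 ± 0.07 SE, edgeR adjusted p = 7.4e-10). ACBI differed from BD98 in 5 of the 7 genes (69.6% of all genes called), and from 2-77 in 6 (70.2%), P-16 in 5 (71.5%) and ENZA in 5 (70.1%). CDKN2C separated ACBI and BD98 most, with 8.38 ± 0.396 CPM against 34.4 ± 1.58 CPM (log2 fold change -2.04 ± 0.07 SE, adjusted p = 2.01e-20), followed by CDKN2B (1.94 ± 0.17). CDKN1A was lower with ACBI than with BD98 (-0.79 ± 0.05) and CDKN1B was higher (0.60 ± 0.07). An alternative without ACBI replicate 3 was chosen after the data were seen. In it, CDKN2A passed in all 4 pairs with ACBI, at 0.17 to 0.30 on the log2 scale above the other compound. CDKN1C no longer passed between ACBI and BD98 (edgeR adjusted p = 0.101). Genes called in all were 10676 against 2-77, 10498 against BD98, 10853 against P-16 and 10649 against ENZA. Replicate 3 was the lowest ACBI library for CDKN2A, at 28.5 CPM. The pairs were not refitted without ACBI replicate 1, the highest at 40.3 CPM, whose omission gave -0.09 against DMSO. The 2-77 and ACBI libraries of the same number deviated together (r = 0.278 to 0.585). A fit of only these groups with the replicate number as a block was also chosen after the data were seen. In it, 7 of the 7 genes differed between 2-77 and ACBI, where 10884 genes were called in all. The added gene was CDKN2A (log2 fold change -0.20, edgeR adjusted p = 0.0218, against -0.19 and 0.0507 in the fit of all libraries).

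The counts of the gene groups that follow are to be read beside those same shares of all genes called against DMSO, 40.7% with 2-77, 72% with ACBI, 49% with BD98, 24% with P-16 and 36.3% with ENZA, and nothing is called particular to a group from them. Of the genes for D-type cyclins and for CDK4 and CDK6, the kinases that INK4 proteins bind, CCND2 was too low to test. Of the 4 tested (CCND1, CCND3, CDK4 and CDK6), 3 fell with ACBI and 0 rose. CCND1, the gene of cyclin D1, had 218.6 CPM with ACBI, against 432.4 CPM with DMSO (log2 fold change -0.98), and CDK4 gave -0.55 and CCND3 -0.35. CDK6 fell with the other 4 compounds, namely 2-77 (1.91 ± 0.124 CPM, against 4.99 ± 0.675 CPM with DMSO, log2 fold change -1.40), BD98 (-1.22), P-16 (-1.26) and ENZA (-1.28), and with ACBI its value was 0.16 (edgeR adjusted p = 0.408). CCND1 rose slightly with 2-77 (0.19), P-16 (0.16) and ENZA (0.12) and fell with BD98 (-0.19). CDK4 also fell with 2-77 (-0.12) and CCND3 rose with BD98 (0.27). The median of the 4 genes was -0.09 with 2-77, -0.45 with ACBI, -0.08 with BD98, 0.07 with P-16 and -0.09 with ENZA.

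Among the 10 tested genes that Cip/Kip proteins bind or that activate those kinases, 9 fell with ACBI and 0 rose, with a median log2 fold change of -2.24. The widest falls were those of the phosphatase gene CDC25C (-4.58) and the cyclin genes CCNB2 (-4.21) and CCNA2, which had 3.71 CPM with ACBI, against 45.9 CPM with DMSO (-3.62). CDK1 was the exception, at 90.0 ± 18 CPM with ACBI and 88.5 ± 6.35 CPM with DMSO (log2 fold change 0.03, edgeR adjusted p = 0.85), and it is named after its value was seen. With 2-77, 1 rose and 6 fell (median -0.36), with P-16 0 rose and 5 fell (-0.22), and with ENZA 0 rose and 7 fell (-0.37), with CDC25B, CDC25C and CCNB2 the largest falls in each. With BD98, 4 rose and 4 fell (median -0.02), CCNE2 at 0.40 and CDC25C at -0.45 among them. The plot of cyclin, CDK and CDC25 genes shows each gene with each compound.

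**Figure D4:**
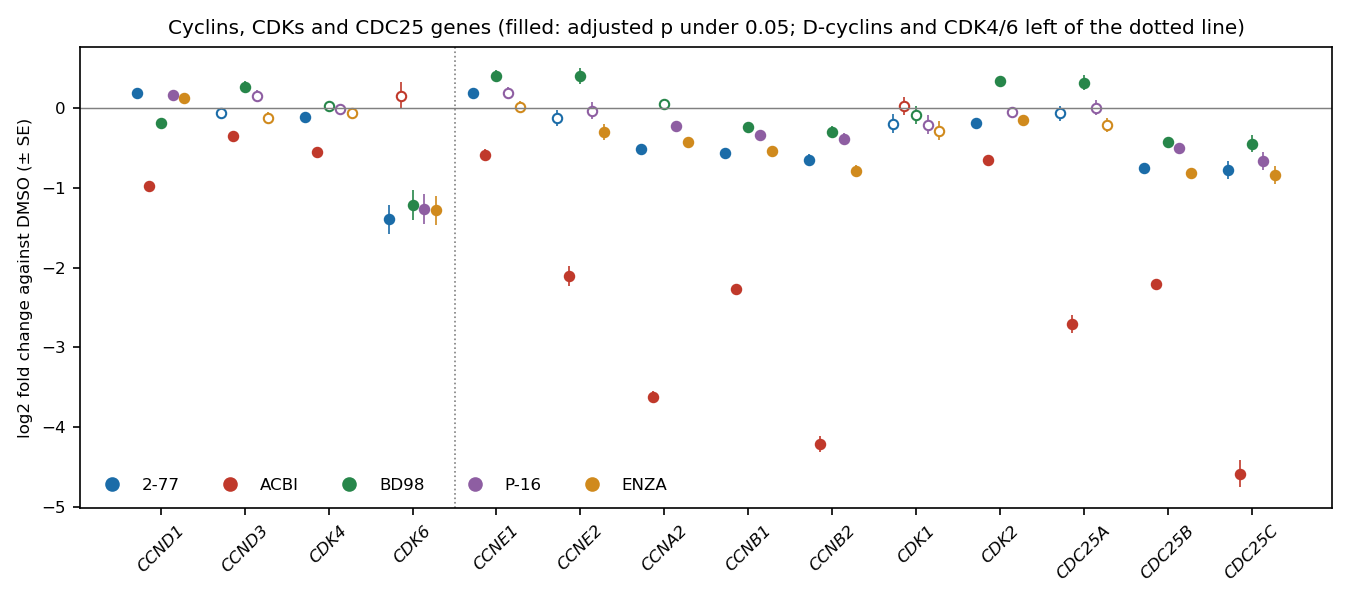
Log2 fold change against DMSO (± SE) of 14 cyclin, CDK and CDC25 genes, coloured by compound, with D-type cyclins and CDK4 and CDK6 left of the dotted line; filled points have an edgeR adjusted p under 0.05. ACBI points reach -4.58 at CDC25C while CDK1 stays at 0.03, and CDK6 is low with the 4 compounds other than ACBI.

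Downstream of these kinases, 1 of 17 RB and E2F genes rose and 9 fell with ACBI (median log2 fold change -0.21), among them E2F7 (-5.36), E2F2 (-4.77) and E2F1 (-3.55). With 2-77, P-16 and ENZA, 1, 1 and 2 rose and 7, 3 and 6 fell, and E2F7 was the largest fall with each (-0.89, -0.51 and -1.09). BD98 gave 7 higher and 1 lower, including RB1 (0.35) and E2F2 (0.51), and RB1 also rose with ACBI (0.33). Of 18 S phase and mitosis genes used as proliferation markers, 18 fell with ACBI (median -3.01), 14 with 2-77 (-0.46), 11 with P-16 (-0.25) and 16 with ENZA (-0.53), and 0 rose with these 4 compounds. With BD98, 8 rose and 7 fell (median 0.01). MKI67, which encodes the Ki-67 antigen, had 9.65 ± 0.697 CPM with ACBI, against 230 ± 5.82 CPM with DMSO. CDKN2C fell with the same 4 compounds and did not pass with BD98, and the part of proliferation in its level was not tested.

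Of 15 genes that act on the inhibitors' breakdown, 10 rose and 4 fell with ACBI (median log2 fold change 0.22), and the falls included DTL (-5.10), a substrate receptor that directs p21 to breakdown, CDC20 (-3.77) and CKS1B (-1.31), the cofactor of the p27 ligase. DTL, CDC20 and CKS1B were also the largest falls of this group with 2-77 (-0.66, -0.51 and -0.53), P-16 (-0.50, -0.26 and -0.52) and ENZA (-0.75, -0.62 and -0.66), and they fell with BD98 too (-0.33, -0.37 and -0.43). In total 2 rose and 4 fell with 2-77, 5 rose and 5 fell with BD98, 0 rose and 3 fell with P-16, and 3 rose and 4 fell with ENZA. SKP2, the F-box receptor for p27, rose with BD98 (0.39) and fell with ACBI (-0.36). The 6 of 15 genes called with 2-77 are a share close to that of all genes.

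Of 22 tested genes for factors known to act on the inhibitor genes, 12 rose and 5 fell with ACBI (median log2 fold change 0.19). MYC, whose product represses CDKN1A and CDKN2B, had 47.9 ± 2.86 CPM with ACBI, against 475 ± 13.8 CPM with DMSO (-3.31). MYC also fell with 2-77 (-0.45), BD98 (-0.96), P-16 (-0.16) and ENZA (-0.36). The Polycomb gene EZH2, known to act on the CDKN2A locus, fell with 2-77 (-0.56), ACBI (-1.57), BD98 (-0.19), P-16 (-0.40) and ENZA (-0.64). Other Polycomb genes of the list did not share this pattern. EED rose with 2-77 (0.265), BD98 (0.46), P-16 (0.25) and ENZA (0.25). BMI1 (0.67), CBX7 (0.66) and CBX8 (0.38) rose with ACBI, BMI1 fell with BD98 (-0.18), and SUZ12 passed with no compound. KLF6 fell with 2-77 (-0.30), BD98 (-0.92), P-16 (-0.35) and ENZA (-0.39) and rose with ACBI (0.29). TBX3 fell with BD98 (-0.60) and rose with 2-77 (0.25), ACBI (0.11), P-16 (0.16) and ENZA (0.16). KLF4 fell with 2-77 (-1.35), BD98 (-0.45), P-16 (-0.85) and ENZA (-1.78), and its value with ACBI was -0.11 (adjusted p = 0.15). Of the FOXO family, which activates CDKN1B, FOXO3 rose with 2-77 (0.51), P-16 (0.16) and ENZA (0.59). FOXO1 fell with 2-77 (-0.40), BD98 (-0.28), P-16 (-0.38) and ENZA (-0.30) and rose with ACBI (0.39). FOXO4 went the other way with ACBI (-0.24) and BD98 (0.44), and did not pass with 2-77, P-16 or ENZA. The group counts were 6 higher and 7 lower with 2-77, 4 and 7 with BD98, 5 and 6 with P-16, and 5 and 7 with ENZA.

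Of 7 tested genes listed as near the members or named like them, 0 rose and 4 fell with ACBI, 0 and 2 with 2-77, 1 and 2 with BD98, 0 and 2 with P-16, and 0 and 2 with ENZA. MTAP, which lies next to CDKN2A and CDKN2B, fell with all 5 compounds, by 0.39 (2-77), 0.96 (ACBI), 0.30 (BD98), 0.22 (P-16) and 0.36 (ENZA) on the log2 scale. CDKN2B-AS1, the antisense RNA that overlaps CDKN2B, averaged 0.219 to 0.378 CPM per condition, too near the floor for a change to be detectable, and passed in 0 of 5 contrasts. The library kit marks strand, but the strand setting of the authors' counting is not given in the sources used here, so reads of CDKN2B and its antisense partner may not be fully apart. KCNQ1OT1, listed for CDKN1C, fell with ACBI (8.02 ± 1.06 CPM, against 14.8 ± 3.13 CPM with DMSO, log2 fold change -0.89), where CDKN1C gave -0.01. The distance between these 2 genes was not measured here. CDKN3, a phosphatase gene outside both families that is regulated in the cell cycle, fell with all 5 compounds, by 3.23 with ACBI and by 0.47 to 0.79 with the others. CDKN2AIP fell with ACBI (-0.29) and CDKN2AIPNL rose with BD98 (0.27), and PANDAR, a noncoding RNA beside CDKN1A, passed in 0 contrasts. DINOL was too low to test.

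The genes whose log2 CPM most resembled that of a member were sought over all 18 libraries and again over the 15 without ACBI. These libraries fall into conditions, so Pearson's r mostly describes differences between conditions. For CDKN2C the nearest reported were MDC1 (r = 0.992) and STIL (0.990) over 18 libraries and FANCD2 (0.979), PTPRJ (0.978) and GTSE1 (0.977) over 15. For CDKN1A they were DIO3 (0.989), ITGA5 (0.984) and FFAR2 (0.983) over 18, and SCD (0.982), FFAR2 (0.982) and CACNA1H (0.979) over 15. TDRP (0.968), STXBP5 (0.965) and DEPTOR (0.964) were nearest to CDKN2B over 18 libraries, and without ACBI the nearest, OXCT2P1, reached 0.846. The nearest reported for CDKN1B were TPD52 (0.955) and FAM160B1 (0.952) over 18, and TCEA1 (0.966), GLO1 (0.952) and SRSF3 (0.951) over 15. CDKN2D was nearest to FRK (0.894), IGF1R (0.886) and DUSP4 (0.873), and without ACBI to AMER1 (0.940), FAR2P1 (0.932) and FAM72B (0.927). Looser matches over 18 libraries were those of CDKN1C, with GPR153 (0.876), FAM222A (0.848) and MIB2 (0.823), and CDKN2A, with COX6A1 (0.823), TOMM22 (0.771) and ZFPL1 (0.762); over 15 libraries the nearest were FAM222A (0.882) and VPS28 (0.766).

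Among themselves, the resemblance of some pairs of members depended on the ACBI libraries. CDKN2B and CDKN2C ran opposite over 18 libraries (r = -0.94) and less closely over the 15 without ACBI (-0.601). CDKN1A and CDKN1B had r = -0.435 with ACBI and 0.717 without it, and CDKN1A and CDKN2C had 0.685 with it and -0.649 without it. CDKN2C and CDKN2D had -0.117 with ACBI and 0.797 without it. Other pairs changed less, among them CDKN1A and CDKN2D (-0.603 with ACBI and -0.53 without it) and CDKN1A and CDKN2A (-0.23 and -0.252). These values are descriptions over libraries that share conditions.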

How the data were processed

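The authors deposited 1 table of expected counts (read counts estimated for each gene in each library, not whole numbers throughout and not scaled to depth), which they made with STAR, Partek and DESeq2 on build hg38, per the submitters' processing notes. The counting program, its annotation and its strand setting are not given in the sources used here. The column names SCO277 and PB_16 were read as 2-77 and P-16. The number of unused columns was 0.

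After rounding, edgeR 4.0.16 (R 4.3.3) was applied with TMM scaling. Its filterByExpr filter over the 6 groups kept 15422 genes and removed 4723. A single robust quasi-likelihood fit covered the 18 libraries, and its two-sided F tests were adjusted by Benjamini-Hochberg over the genes tested, at a threshold of 0.05. The scripts were tested on simulated data. CPM uses TMM-scaled totals of tested genes. Levels per kb divide CPM by the union of GENCODE exons in protein-coding transcripts of each gene. These exons may not be the ones counted. CDKN2C starts at 50960745 in GENCODE and at 50968695 in the authors' coordinates, and CDKN1B at 12715058 and 12717368. Levels per kb, shares and family sums depend on these lengths. Figures were drawn with matplotlib 3.10.9.

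The members and gene lists were chosen with earlier results of these data known. The text names all 7 members, the 3 called genes of each list with the largest change and at least 4 CPM in the higher group, all measured neighbours, and the 3 genes most correlated with each member; a few further list genes were named after their values were seen. Alternatives were RLE scaling, library totals, DESeq2 1.42.0, other filters, 2-group fits, a replicate block, no ribosomal RNA genes and each library left out. Same-numbered libraries of different conditions deviated together with r above 0.1 in 11 of 45 pairs (median -0.048), so replicates were not treated as paired. The exception was 2-77 with ACBI, where all 3 pairs exceeded 0.1, and a blocked fit of these groups is given beside that comparison; their replicate 3 libraries had the highest shares of ribosomal RNA counts (2.09% and 8.6%). Some genes that these rules would name are not reported here.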

Additional observations from a re-analysis of the deposited data

How the results depend on the processing

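None of the 15 called changes of a CDK inhibitor gene against DMSO changed sign under the alternatives tried, and all but 1 of them kept an adjusted p under 0.05 throughout; the exception was CDKN1C with 2-77, as given above. With a replicate block, 6107, 10997, 7388, 3547 and 5466 genes changed with 2-77, ACBI, BD98, P-16 and ENZA, and 4, 4, 2, 3 and 2 of the 7 members, the same member counts as without the block, and no call of a member against DMSO changed. The count of members changed with BD98 was 4 with library totals and 4 with only those 2 groups fitted, against 2, since CDKN1C (0.44 and 0.37) and CDKN2C (0.21 and 0.15) then passed. CDKN2C with BD98 also passed without DMSO replicate 2 (adjusted p = 0.0492), and CDKN1B with ENZA passed when only those 2 groups were fitted (adjusted p = 0.00689).

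The sign turned only for differences near 0 that were never called in the fit reported. These were CDKN1C with ACBI (0.0022 with no filter, 2e-04 without ribosomal RNA genes), CDKN2A with BD98 (0.0344 with library totals) and CDKN2A with ENZA (-0.0052 with RLE, -0.0035 with DESeq2, -3e-04 with the replicate block, 0 without ribosomal RNA genes and -0.0017 in the 2-group fit). Between compounds, library totals gave CDKN2A -0.022 and CDKN2D -0.0432 for ACBI against BD98 and CDKN2A 0.0265 for BD98 against ENZA, and CDKN2A for BD98 against P-16 was -0.0069 with RLE and -0.0082 with DESeq2. Leaving out 1 library at a time gave -0.0283 to 0.1998 for CDKN2B with 2-77, -0.0651 to 0.0579 for CDKN1C, -0.0923 to 0.1711 for CDKN2A and -0.1009 to 0.0599 for CDKN2D with ACBI, -0.0719 to 3e-04 for CDKN2A with BD98, -0.0657 to 0.0066 for CDKN1B with P-16 and -0.0435 to 0.0543 for CDKN2A with ENZA. CDKN2A for 2-77 against ACBI passed with RLE (adjusted p = 0.0348) and with the replicate block (0.0218) but not in the fit of those 2 groups without it (0.121), and CDKN1C for ACBI against BD98 did not with DESeq2 (adjusted p = 0.0678). The cause was not tested. CDKN1C and CDKN2B, at 37 to 232 counts per library, had the widest intervals of the 7 genes.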
